A study of Mus musculus with 12 samples.

Results

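Rpph1, Rmrp, Terc, Rn7sk, Rn7s1, Rn7s2, Malat1 and Neat1 are stable noncoding RNAs of the mouse that work without being translated. They were chosen by name. Of these 8 genes, 5 had a feature in the deposited values, among 25091 genes and repeats in all and 4649 genes with a noncoding RefSeq (NR_) feature. No feature was found for Rn7sk, Rn7s1 or Rn7s2, and these 3 are not analysed here.

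A pair of experiments on mouse zygotes asked which RNAs depend on LSM1 and which are bound by it. LSM1 belongs to the cytoplasmic LSM ring, which binds the 3′ ends of shortened RNAs and promotes their decapping and decay. In the RIP-seq, zygotes received Lsm1_3XFlag mRNA (FLAG) or untagged Lsm1 mRNA (Ctrl), the lysate was pulled down on anti-FLAG beads (IP), and part of the lysate was kept as Input. In the total RNA-seq, zygotes received Lsm1 siRNA (Lsm1_KD) or scramble siRNA (Ctrl siRNA). The zygotes came from B6D2F1 females aged 8 to 10 weeks that were superovulated and mated, and were collected 18 to 20 h after hCG and then injected, as the labels have it. The study's text instead describes siRNA injection into immature (GV) oocytes that were then matured and fertilized in vitro, and its methods give a younger age for the females, so that the stage of the Lsm1_KD injection is in doubt. There were 2 libraries in each of the 6 groups, 12 in all. The methods describe a few embryos for each RNA-seq library and a much larger pool of cells, called oocytes there and zygotes in the labels, for each RIP lysate. The tagged protein came from injected mRNA on top of the zygote's own LSM1, and the nature of the Ctrl injection is in doubt, since Lsm1 itself stood at 24.6 and 20.2 CPM in the Ctrl IP and at 16.3 and 16.1 CPM in the Ctrl Input, against 11125 and 121440 CPM in the FLAG IP and 9931 and 14731 CPM in the FLAG Input. In the RNA-seq Lsm1 stood at 61.7 and 69.7 CPM in Lsm1_KD zygotes and at 152 and 144 CPM in Ctrl siRNA zygotes.

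Rpph1 is the RNA subunit of RNase P, the nuclear enzyme that cuts the 5′ leader from precursor tRNAs. Rmrp is its relative in RNase MRP, which takes part in the processing of precursor ribosomal RNA, and both share most of their protein subunits. Terc is the RNA of telomerase and carries the template that is copied into telomeric repeats. Malat1 is a long RNA of nuclear speckles, and Neat1 is the scaffold of the paraspeckle, a nuclear body that forms on its long form. Rn7sk restrains the elongation factor P-TEFb in the nucleus, and Rn7s1 and Rn7s2 are RNAs of the signal recognition particle, which guides secreted proteins to the endoplasmic reticulum in the cytoplasm. None of these RNAs needs a poly(A) tail to be stable, although the short form of Neat1 has one. RNase P also cuts the primary Malat1 RNA, which releases a small tRNA-like RNA, mascRNA, and leaves Malat1 with an end that is protected by a triple helix of an A-rich tract with upstream U-rich tracts.

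All 5 genes are annotated with 1 exon on the minus strand of GRCm38, which is mm10, the build of the files. Rpph1 (325 nt) lies at chr14:50807447-50807771, Rmrp (275 nt) at chr4:43492785-43493059 and Terc (397 nt) at chr3:96414437-96414833. Malat1 (6983 nt, chr19:5795690-5802672) and Neat1 (chr19:5824708-5845480) are neighbours on chromosome 19. Neat1 has 2 features, a short form of 3185 nt and a long form of 20769 nt. The short form lies within the long form, and the quantification assigned it 0 to 3.74 reads in a library, so that the values of Neat1 are in effect those of the long form.

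The sequences show how the annotated transcripts of these RNAs end. The last 60 nt of each, taken from the GRCm38 genome 5′ to 3′ in the sense of the RNA, are shown with every run of 4 or more A or 4 or more T in capitals.
Rpph1: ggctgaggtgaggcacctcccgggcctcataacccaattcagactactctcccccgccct
Rmrp: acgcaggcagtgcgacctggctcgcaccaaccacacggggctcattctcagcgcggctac
Terc: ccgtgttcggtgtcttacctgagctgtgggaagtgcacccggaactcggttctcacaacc
Malat1: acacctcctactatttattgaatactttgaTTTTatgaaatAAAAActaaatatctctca
Neat1 long form: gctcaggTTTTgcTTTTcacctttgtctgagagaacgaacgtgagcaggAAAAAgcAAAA
The 3 short RNAs held no such run in this window, and both long RNAs held runs of A and of T. Among 1289 NR_ features under 400 nt, 14.6% held AAAA and 20.2% held TTTT in their last 60 nt, against 58.4% and 42.3% of 2484 features of 1000 nt and over. This was searched on the RNA strand only.

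The annotated end of Malat1 is not its functional end. mascRNA (58 nt, in capitals) stands at chr19:5795924-5795981, followed by another 234 nt of the annotated transcript, and the 100 nt before it hold the A-rich tract and the T-rich tracts of the triple helix, so that these are the letters at the RNase P cut.
Malat1 cut site: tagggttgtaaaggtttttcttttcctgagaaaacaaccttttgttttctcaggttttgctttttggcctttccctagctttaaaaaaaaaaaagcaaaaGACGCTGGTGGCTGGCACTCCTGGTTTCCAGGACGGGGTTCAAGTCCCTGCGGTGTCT
mascRNA has a feature of its own, to which no read was assigned in any of the 12 libraries. Its reads could also be assigned to Malat1, which contains it. The first 60 nt of Terc show, in capitals, the letters CTAACCCT, from which the telomeric repeat is copied.
Terc template: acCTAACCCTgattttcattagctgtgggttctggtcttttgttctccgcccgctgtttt
These letters stood in the first 60 nt of 3 of 4732 NR_ features (0.0634%), Terc among them.

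In the RIP libraries Rpph1 was the most abundant of the 5 RNAs by TPM. The TPM scale divides by an effective length, so that levels of different genes can be compared. That length was 98.8 to 122 nt for Rmrp (275 nt) and 6768 to 6804 nt for Malat1 (6983 nt). The TPM of the short RNAs thus depends more on this estimate. Rpph1 stood at 845 to 3102 TPM in the 8 RIP libraries and ranked 13 to 74 among the 25091 genes and repeats. Rmrp followed at 31.9 to 89.4 TPM and ranked 732 to 3403. Malat1 at 3.87 to 46.4 TPM and Terc at 3.12 to 34.8 TPM overlapped, and their order differed between groups: Malat1 was above Terc in both FLAG IP libraries, and Terc was above Malat1 in both Ctrl IP libraries. Neat1 was lowest, at 0.0658 to 9.85 TPM, and was above 1 TPM in FLAG IP replicate 1 alone. The 5 genes together held 0.0436% to 0.0798% of the estimated counts in the FLAG IP, 0.0186% to 0.0373% in the FLAG Input, 0.0361% to 0.0697% in the Ctrl IP, 0.0166% to 0.0206% in the Ctrl Input, and 0.000743% to 0.00297% in the RNA-seq.

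Libraries held 4636492 to 31586450 estimated counts. All 10 oocyte and zygote markers were above 1 TPM in every library, at 3466 to 9302 CPM in sum in the RIP libraries and 9963 to 12172 CPM in the RNA-seq. Of 8 cumulus markers, 7 were above 1 TPM in FLAG IP replicate 1 (68.4 CPM in sum), 1 to 2 in each other RIP library (13.3 to 22.5 CPM) and 1 in each RNA-seq library (11.5 to 16.1 CPM), and between 0 and 4 of the 8 were at 0 in a RIP library. FLAG IP replicate 1 stood apart from the other RIP libraries: repeats took 12.7% of its counts and 0.147% to 2.63% of theirs, and its TMM factor, which scales a library by the bulk of its genes, was 1.87 against 0.872 to 1.02. Calls in the FLAG arm are given with and without it. Where groups differ, fewer cells and less RNA per cell cannot be told apart.

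Malat1 and Neat1 were higher in the FLAG IP than in the FLAG Input, and Malat1 was also higher in the Ctrl IP, where no FLAG tag was present. Malat1 had 163 and 288 TMM-normalized CPM in the FLAG IP and 31.2 and 36.0 CPM in the FLAG Input. In the Ctrl arm it had 181 and 141 CPM in the IP and 24.8 and 26.8 CPM in the Input. All 4 IP libraries were thus above all 4 Inputs. The fitted ratio of IP over Input was 6.70-fold in the FLAG arm (log2 2.74, SE 0.44, adjusted p = 0.0038) and 6.25-fold in the Ctrl arm (log2 2.64, SE 0.43, adjusted p = 0.0097). With 2 libraries a group these calls were not robust to the loss of one. The FLAG call was lost without FLAG Input replicate 1 (log2 2.65, adjusted p = 0.059), and the Ctrl call without Ctrl Input replicate 1 (2.60, adjusted p = 0.13), Ctrl Input replicate 2 (2.71, adjusted p = 0.15) or Ctrl IP replicate 1 (2.45, adjusted p = 0.11), with the size of the ratio nearly the same. Without FLAG IP replicate 1 the log2 ratio of Malat1 in the FLAG arm was 3.06.

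Neat1 had 104 and 15.6 CPM in the FLAG IP and 3.07 and 2.91 CPM in the FLAG Input, a 20.1-fold ratio (log2 4.33, SE 0.75, adjusted p = 0.0049). The groups did not overlap, but the 2 pull-downs differed widely, and the ratio was 33.8-fold in replicate 1 and 5.37-fold in replicate 2. Without FLAG IP replicate 1 the fitted log2 ratio was 2.35 (adjusted p = 0.0091). That library also held the most signal of cumulus markers, 68.4 CPM in sum against 13.3 to 22.5 CPM in the other RIP libraries. Of 5 sperm and testis markers, 4 were above 1 TPM there, at 12.5 CPM in sum. In Ctrl IP replicate 1 it was 3 of them, at 13.6 CPM. Repeats took 12.7% of the counts of FLAG IP replicate 1. The part of these traits in the result was not tested. In the Ctrl arm Neat1 had 14.7 and 6.90 CPM in the IP and 1.28 and 1.68 CPM in the Input, a log2 ratio of 2.85 (SE 0.72, adjusted p = 0.067). The Ctrl groups did not overlap either, and the call depended on the model: with the lysate as a block the ratio was 2.77 with adjusted p = 7.8e-08.

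**Figure D1:**
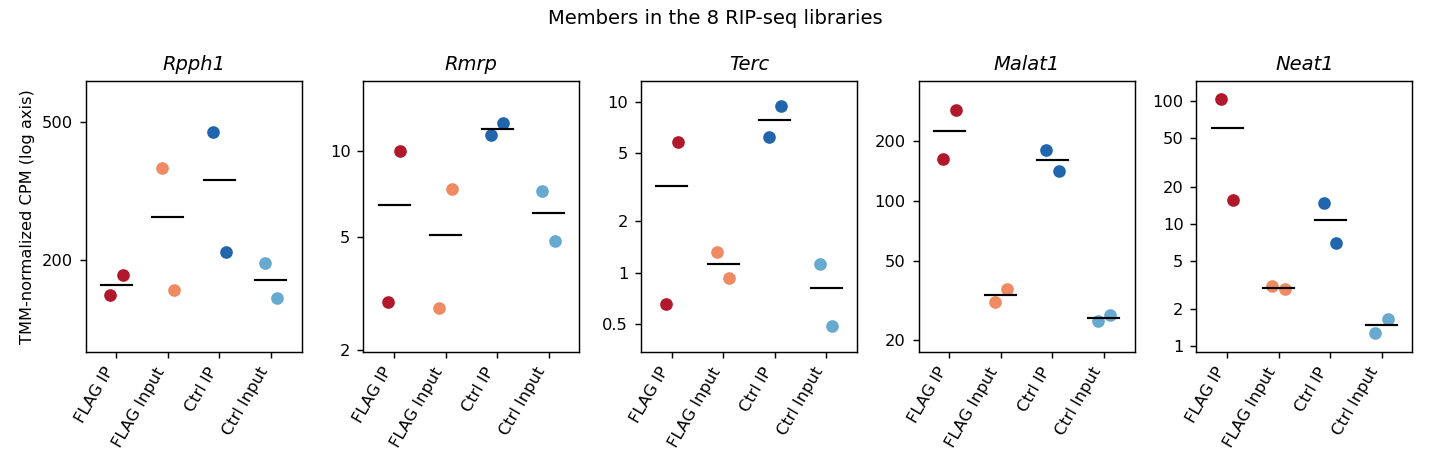
TMM-normalized CPM (log axis, a range of its own in each panel) of the 5 RNAs in the FLAG IP, FLAG Input, Ctrl IP and Ctrl Input. Points are libraries and bars are means of 2. All IP libraries of Malat1 and Neat1 lie above all Inputs, and the Neat1 point at 104 CPM is FLAG IP replicate 1.

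These 2 calls of 5 in the FLAG arm stand beside 20.9% of the 18972 genes and repeats tested that were called higher there (5.11% lower). A call required more than a 2-fold difference, that is, a log2 ratio beyond 1 or −1, together with an adjusted p under 0.05. The 1 call of 5 in the Ctrl arm stands beside 2.12% called higher and 0.00527% called lower, and all 5 RNAs had both Ctrl IP libraries above both Ctrl Inputs, as had 33.4% of all features tested. In the FLAG arm, where this held for Malat1 and Neat1, it held for 42.1%. Without FLAG IP replicate 1, Malat1, Neat1 and Terc were called in the FLAG arm, beside 1885 of 18980 features called higher and 658 called lower. With the lysate as a block, 1436 features in place of 403 were called higher in the Ctrl arm, and 3 of the 5 RNAs, and 1813 in place of 969 were called lower in the FLAG arm, and 2 of the 5 RNAs higher. Shares differed between kinds of genes: among genes with NR_ features only, 34.8% were called higher in the FLAG arm and 6.85% in the Ctrl arm, and among 974 genes with 1 exon, 33.3% and 10.9%, against 19.1% and 1.36% of 17497 genes with more exons. The split by exon number was made after the values were seen, and its part in the ratios of Malat1 and Neat1 was not tested. The log2 ratio of Malat1 was at the 71.0th percentile of all ratios in the FLAG arm and that of Neat1 at the 87.9th, while the median of all was 0.49. Scaled by library totals in place of TMM, that median was 1.17 in the FLAG arm and 0.28 in place of 0.12 in the Ctrl arm, and 3922 features were called higher and 408 lower in the FLAG arm, in place of 3972 and 969. The same scaling put Malat1 at 3.20 and Neat1 at 5.28 in the FLAG arm.

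The 3 short RNAs were not called in either arm. Rpph1 had 159 and 181 CPM in the FLAG IP and 369 and 164 CPM in the FLAG Input, so the groups overlapped (log2 −0.65, SE 0.56, adjusted p = 0.36). In the Ctrl arm Rpph1 had 467 and 211 CPM in the IP and 197 and 155 CPM in the Input, which did not overlap (log2 0.95, SE 0.57, adjusted p = 0.45). The means were 170 CPM in the FLAG IP and 267 CPM in the FLAG Input, and the SD of the FLAG Input (145) was larger than their difference. They were 339 CPM in the Ctrl IP and 176 CPM in the Ctrl Input, where the SD of the Ctrl IP (181) was larger than the difference. In FLAG replicate 1 the IP over Input of Rpph1 was 0.432 by TMM and 0.875 by library totals.

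Rmrp had 2.95 and 9.99 CPM in the FLAG IP and 2.81 and 7.37 CPM in the FLAG Input (log2 0.34, SE 0.63, adjusted p = 0.67). It had 11.4 and 12.6 CPM in the Ctrl IP and 7.26 and 4.81 CPM in the Ctrl Input (log2 0.99, SE 0.63, adjusted p = 0.49). On the TMM scale replicate 1 of the FLAG arm was far below replicate 2, in the IP and in the Input, and the groups overlapped. By library totals the FLAG IP stood at 5.47 CPM in replicate 1 and 8.71 CPM in replicate 2. Both Ctrl IP libraries were above both Ctrl Inputs.

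Terc differed widely between the FLAG pull-downs. It had 0.655 and 5.81 CPM in the FLAG IP, from 12 and 71 reads, and 1.32 and 0.936 CPM in the FLAG Input, from 31 and 23 reads (log2 1.5, SE 0.92, adjusted p = 0.21). On this TMM scale FLAG IP replicate 1 was below both Inputs and replicate 2 above them. By library totals replicate 1 stood at 1.22 CPM, against 1.21 and 0.823 CPM in the FLAG Inputs. Its place below the Inputs thus depended on the scaling. Without FLAG IP replicate 1 the log2 ratio of Terc was 2.32. In the Ctrl arm Terc had 6.25 and 9.45 CPM in the IP and 1.13 and 0.490 CPM in the Input, from 73 and 170 reads against 32 and 11. That log2 ratio of 3.26 (SE 0.97) was the largest of the 5 in the Ctrl arm and missed the threshold (adjusted p = 0.11), and with the lysate as a block it passed (log2 3.32, adjusted p = 0.0058).

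The ratio of the arms, FLAG IP over Input divided by Ctrl IP over Input, asks whether a pull-down gain depends on the tag. None of the 5 RNAs passed, and none of the 18972 features was called in either direction (0%) by edgeR, where 757 higher and 239 lower ones had an unadjusted p under 0.05, and DESeq2 called 1 higher and 1 lower. The log2 values were 0.10 for Malat1 (SE 0.58), 1.47 for Neat1 (SE 0.97), −0.65 for Rmrp (SE 0.88), −1.59 for Rpph1 (SE 0.80) and −1.76 for Terc (SE 1.29), with adjusted p = 0.79 to 0.97. All 3 short RNAs were below 0 and none passed the test.

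FLAG IP replicate 2 decided these values in part. Without it, 3 of the 5 RNAs were called, with Neat1 at log2 2.27 (adjusted p = 0.0043), Rpph1 at −1.70 (adjusted p = 0.045) and Terc at −4.04 (adjusted p = 0.010), beside 1710 of 20792 features called higher and 4234 called lower without it. The FLAG IP is then replicate 1 alone, the library with 12.7% repeats, whose spread is assumed to be that of the other groups. Without FLAG IP replicate 1, Neat1 stood at −0.45, on the other side of 0, no RNA was called, and 1 of 18980 features was called higher and 0 lower.

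**Figure D2:**
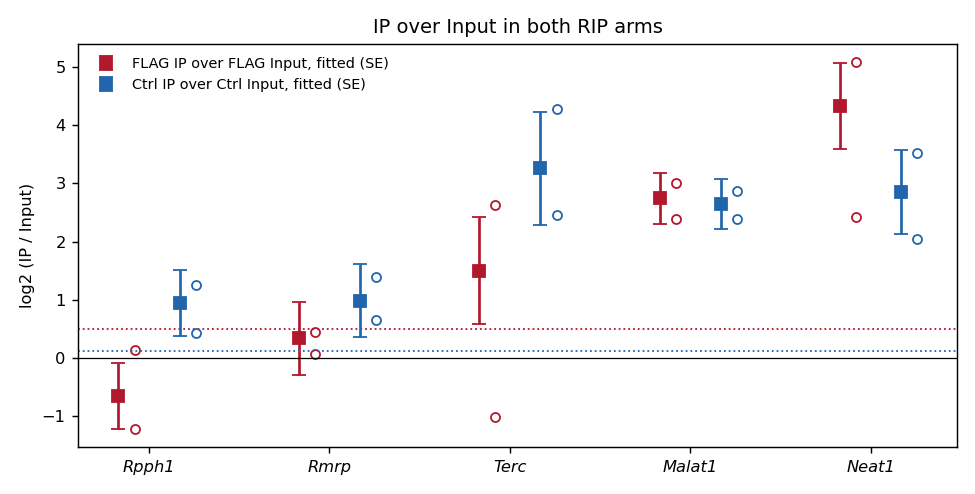
log2 ratio of IP over Input for the 5 RNAs in the FLAG arm (red) and the Ctrl arm (blue). Squares with bars are fitted values with their SE, open circles are the 2 single lysates, and dotted lines are the medians of all features (0.49 and 0.12). Malat1 lies at 2.74 and 2.64, and the circles of Terc and Neat1 lie far apart in the FLAG arm.

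The Inputs of both arms were also compared. None of the 5 passed the test between FLAG Input and Ctrl Input, and none of the features tested was called by edgeR (0%), where 167 higher and 9 lower ones had an unadjusted p under 0.05, and DESeq2 called 1 higher and 0 lower. Malat1 (log2 0.38, SE 0.41) and Neat1 (log2 1.01, SE 0.71) were higher in both FLAG Inputs than in both Ctrl Inputs, as were 18.3% of all features tested, with adjusted p = 1 for each.

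Across the 8 RIP libraries the levels of Malat1 and Neat1 had a Pearson r of 0.82 on the log2 scale, those of Rmrp and Terc 0.78, and those of Rpph1 and Rmrp 0.09. These libraries share lysates and groups, and the values are a description. Over all 12 libraries, among 18121 features, the 2 features most like each RNA were Puf60 and Mok for Rpph1 (r = 0.991 each), H2bc14 and Gm23284 for Rmrp (0.991 and 0.987), Snord47 and Snord34 for Terc (0.994 and 0.993), Rbbp6 and Gm2a for Malat1 (0.969 and 0.962), and the repeat ORR1C1 and the gene Mrgpre for Neat1 (0.986 and 0.984). Over the 8 RIP libraries alone the r of these pairs was 0.40 and 0.60 for Rpph1, 0.83 and 0.78 for Rmrp, 0.98 and 0.97 for Terc, 0.96 and 0.95 for Malat1, and 0.98 each for Neat1. Rpph1, Rmrp and Terc were at or near 0 reads in the RNA-seq, so their r over 12 libraries includes the difference between the experiments. Rpph1 and Rmrp themselves had r = 0.97 over the 12 libraries.

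The 3 short RNAs were present in every RIP Input and nearly absent from the RNA-seq. Rpph1 had 8682 and 4034 reads in the FLAG Input and 5549 and 3489 in the Ctrl Input, against 0 and 1 in Lsm1_KD and 2 and 2 in Ctrl siRNA zygotes. Rmrp had 66 and 181 reads in the FLAG Input and 205 and 108 in the Ctrl Input, and Terc had 31 and 23 and then 32 and 11. Neither Rmrp nor Terc had a read in any of the 4 RNA-seq libraries.

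Rpph1, Rmrp, Terc and Neat1 passed the filter on low counts only through the Inputs. Their ratios to the RNA-seq are therefore given as a description, without p-values. Scaled by TMM, Rpph1 was 1148-fold higher in the Inputs than in the RNA-seq (95% counting interval 492 to 3536, from 21754 and 5 reads). Its fitted log2 ratio was 10.35 (SE 0.45). Against a floor of 3 counts over the 4 RNA-seq libraries, Rmrp was at least 47.8-fold higher (560 and 0 reads). Terc was at least 8.37-fold higher (97 and 0 reads). These intervals and floors cover counting error only. Between the control groups alone, Ctrl Input over Ctrl siRNA, Rpph1 was 658-fold higher (interval 257 to 2414), Rmrp at least 30.1-fold and Terc at least 4.05-fold, the last losing its call when any of the 4 libraries was left out.

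Neat1 and Malat1 differed far less. Neat1 had 72.2 and 71.4 reads in the FLAG Input and 36.1 and 37.6 in the Ctrl Input, against 0 and 6.13 in Lsm1_KD and 5.04 and 4.0 in Ctrl siRNA zygotes. All 4 Inputs were above the RNA-seq, with log2 1.90 (SE 0.65). The call of Neat1, likewise a description, was lost in 8 of 16 alternatives. Malat1 had 24.8 and 28.2 CPM in the FLAG Input and 19.4 and 21.0 CPM in the Ctrl Input, against 27.3 and 7.70 CPM in Lsm1_KD and 17.4 and 33.7 CPM in Ctrl siRNA zygotes. These overlapped (log2 0.16, SE 0.35, adjusted p = 0.72).

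**Figure D3:**
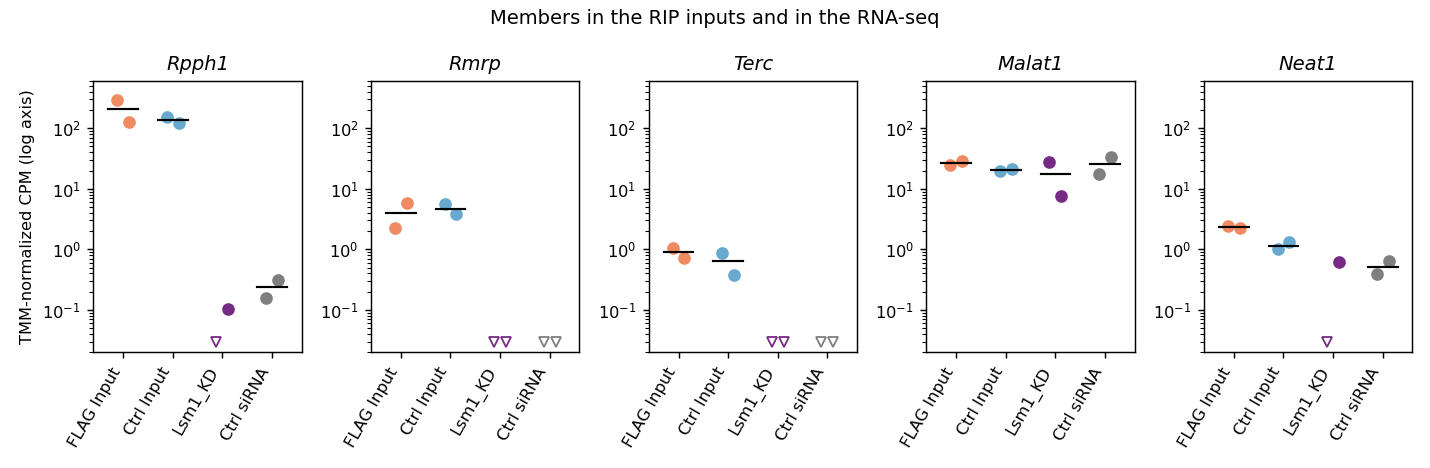
TMM-normalized CPM (log axis) of the 5 RNAs in the FLAG Input, Ctrl Input, Lsm1_KD and Ctrl siRNA libraries. Points are libraries, bars are means where both libraries are above 0, and open triangles at the foot mark libraries with 0 reads. Rmrp and Terc have 0 reads in all 4 RNA-seq libraries, and Malat1 overlaps between the experiments.

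Rpph1, Rmrp, Terc and Neat1 passed the filter on low counts only through the Inputs, where they are high, so the 4 calls of 5 are a description. They stand beside 24.3% of 14629 features called higher in the Inputs and 16.6% called lower, or 20% and 16% between the control groups. The median log2 ratio of all features was 0.22, and 0.59 with library totals in place of TMM, which called 4774 features higher and 1680 lower in place of 3554 and 2434 (between the control groups, 3900 and 1624 in place of 2930 and 2345). Short noncoding genes with reads in the Inputs were often missing from the RNA-seq. The genes counted here were chosen by their reads in the Inputs, and the counts are a description. Of 72 genes with NR_ features only that were under 400 nt and had at least 100 reads in the Inputs, 52 (72.2%) had fewer than 10 reads in the 4 RNA-seq libraries together and 22 had none. Of 115 such genes of 400 to under 1000 nt it was 12 (10.4%), and of 474 longer ones 28 (5.91%). The 2 experiments also differ in library kit, number of embryos and injected RNA. By the study's text they differ in the stage of injection as well. There the siRNA went into GV oocytes, matured and fertilized in vitro, and the mRNA of the RIP-seq into early zygotes, collected as late zygotes. The labels name the KAPA Stranded kit with RiboErase for the RNA-seq and the SMARTer Stranded Total RNA kit for the RIP-seq, while the methods describe an amplified cDNA library for the RNA-seq. Library preparation and biology cannot be told apart in this contrast.

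**Figure D4:**
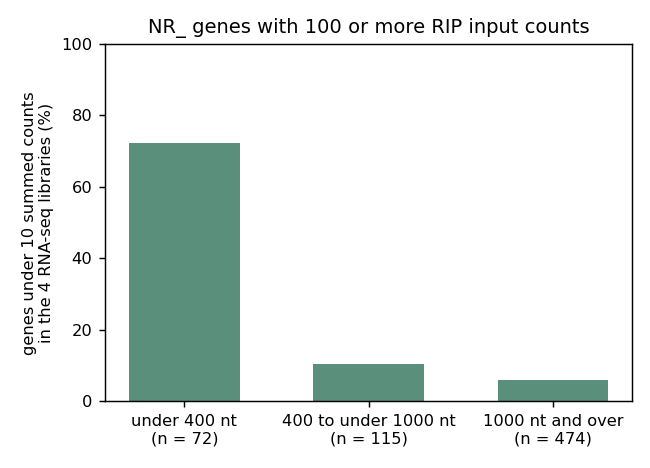
Share (%) of NR_ genes with fewer than 10 summed reads in the 4 RNA-seq libraries, by transcript length, among NR_ genes with 100 or more summed reads in the 4 Inputs. Bars start at 0 and n is the number of genes. The share is 72.2% under 400 nt, 10.4% in the middle class and 5.91% at 1000 nt and over.

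Between Lsm1_KD and Ctrl siRNA zygotes, Malat1 alone passed the filter on low counts. Malat1 had 110 and 75.4 estimated reads in Lsm1_KD zygotes and 223 and 213 in Ctrl siRNA zygotes, which is 24.5 and 6.92 CPM against 15.0 and 29.4 CPM. The groups overlapped, and the log2 ratio was −0.53 (SE 0.56, adjusted p = 0.59). It was called lower without Lsm1_KD replicate 1 (log2 −1.70, adjusted p = 0.047) and stood at 0.14 without Lsm1_KD replicate 2, so that single libraries set its direction. Of 11335 features tested, 5.4% were called higher and 2.75% lower.

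The other RNAs were low in the RNA-seq and did not pass the filter. Without the filter, Rpph1 gave a log2 ratio of −1.61 (SE 3.35, adjusted p = 0.82) and Neat1 −0.53 (SE 2.45, adjusted p = 0.93). Pooled over the group, Rpph1 stood at 0.0636 CPM in Lsm1_KD (interval 0.00161 to 0.354, from 1 read) and 0.187 CPM in Ctrl siRNA zygotes (0.0510 to 0.479, from 4 reads). Neat1 stood at 0.390 CPM in Lsm1_KD (0.145 to 0.842) and 0.423 CPM in Ctrl siRNA zygotes (0.194 to 0.802). The intervals overlapped for both. Rmrp and Terc, with 0 reads, could have been present at up to 0.191 CPM in Lsm1_KD and 0.140 CPM in Ctrl siRNA zygotes, so that a change was not detectable at this depth.

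The proteins that bind these RNAs are encoded by mRNAs that the RNA-seq did measure. Of 44 such genes, 41 were tested between Lsm1_KD and Ctrl siRNA zygotes. Among them 4 were called higher and 1 lower, beside 5.4% and 2.75% of the 11335 features tested. Their median log2 ratio was 0.27 against 0.01 over all features. The telomerase group had 2 of 6 called higher: Nop10, a core protein of the H/ACA particle to which Terc belongs, with 26.2 ± 9.06 CPM in Lsm1_KD and 7.28 ± 0.753 CPM in Ctrl siRNA zygotes (SD, n = 2 each; log2 1.85, SE 0.41, adjusted p = 0.019), and its partner Gar1 with 40.0 ± 4.93 CPM in Lsm1_KD and 13.7 ± 1.61 CPM in Ctrl siRNA zygotes (log2 1.55, SE 0.31, adjusted p = 0.014). Dkc1, the pseudouridine synthase of the same particle, fell by 0.82 on the log2 scale (adjusted p = 0.026), short of the fold threshold, and had adjusted p = 0.088 without Lsm1_KD replicate 1 and 0.054 without Lsm1_KD replicate 2. Without Lsm1_KD replicate 2 the calls of Nop10 (log2 1.43, adjusted p = 0.15) and Gar1 (log2 1.41, adjusted p = 0.066) were lost.

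Of the 8 genes of the signal recognition particle, 2 were called higher and 1 lower, beside the same 5.4% and 2.75% of all features. Srp54a had 193 ± 0.522 CPM in Lsm1_KD and 95.8 ± 3.36 CPM in Ctrl siRNA zygotes (log2 1.01, SE 0.20, adjusted p = 0.014), and Srp54c had 83.8 ± 4.25 CPM in Lsm1_KD and 183 ± 3.97 CPM in Ctrl siRNA zygotes (log2 −1.13, SE 0.21, adjusted p = 0.0086). These genes are near-identical copies whose reads the quantification could have divided differently, and their opposite signs are uncertain. Srp54a was close to the fold threshold and lost its call without Lsm1_KD replicate 1 (0.99) or Ctrl siRNA replicate 1 (0.96). None of 6 genes of the 7SK particle, of 10 subunits of RNase P and RNase MRP, or of 4 genes that process or bind Malat1 was called, nor was Ssb, which binds the U tract at the 3′ end of new polymerase III transcripts. The most abundant of each of these groups was Larp7, the 7SK-binding protein (log2 0.63, SE 0.20, adjusted p = 0.072), Pop1, a subunit of RNase P and RNase MRP (0.22, SE 0.23, adjusted p = 0.58), Elac2, which cuts the 3′ end of tRNAs and of mascRNA (−0.76, SE 0.30, adjusted p = 0.13), and Ssb itself (0.27, SE 0.19, adjusted p = 0.39).

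**Figure D5:**
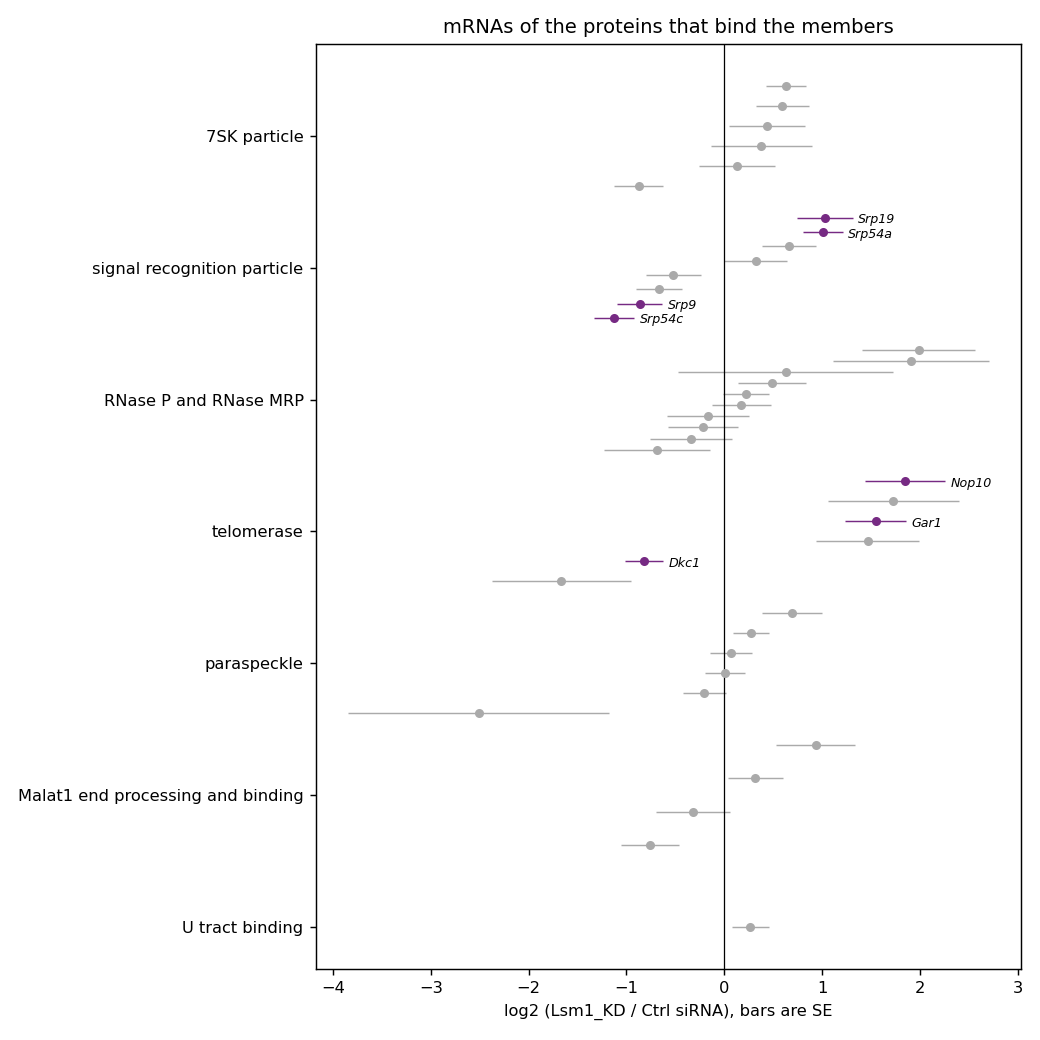
log2 ratio of Lsm1_KD over Ctrl siRNA zygotes for 41 mRNAs of proteins that bind the RNAs, one point per gene with its SE, by particle. Purple points have an adjusted p under 0.05 and are named. Nop10 at 1.85 and Gar1 at 1.55 are on the right and Dkc1 at −0.82 on the left of 0.

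In the pull-downs the same 44 mRNAs had a median log2 ratio of −0.60 in the FLAG arm, where the median of all features was 0.49, and of −0.13 in the Ctrl arm, where it was 0.12. In the FLAG arm 3 of the 44 were called higher and 4 lower, where the shares over all features were 20.9% and 5.11%, and in the Ctrl arm 2 higher and 0 lower, where they were 2.12% and 0.00527%. Hexim1, which inhibits P-TEFb when bound to 7SK RNA, was called higher in both: 44.3 ± 39.4 CPM in the FLAG IP and 4.40 ± 1.83 CPM in the FLAG Input (log2 3.33, SE 0.61, adjusted p = 0.0059), and 73.3 ± 18.2 CPM in the Ctrl IP and 2.10 ± 0.443 CPM in the Ctrl Input (log2 5.12, SE 0.66, adjusted p = 0.0023). Like the 5 RNAs, Hexim1 is annotated with 1 exon, and a part of exon number in the ratios of partner genes was not tested. Rpp40, a subunit of RNase P, was called higher in the FLAG arm (log2 3.38, SE 0.58, adjusted p = 0.0049), as was Wrap53, which directs telomerase RNA to Cajal bodies (log2 4.74, SE 0.94, adjusted p = 0.0082). Both Rpp40 pull-downs differed widely (66.0 ± 60.8 CPM in the FLAG IP and 6.34 ± 0.425 CPM in the FLAG Input). Without FLAG IP replicate 1 the log2 ratio of Hexim1 was 3.99 (adjusted p = 8.4e-05), that of Rpp40 1.82 (adjusted p = 0.0052) and that of Wrap53 3.55 (adjusted p = 0.015). Wrap53 lost its call without FLAG Input replicate 1 (adjusted p = 0.057) or replicate 2 (adjusted p = 0.066). The ratio between the arms was not called for either gene (log2 2.10 and 0.84, adjusted p = 0.79 and 0.84). Rpp25, another subunit with 1 exon, had a log2 ratio of 6.0 (SE 1.18) in the Ctrl arm. It stood at 7.58 ± 3.33 CPM in the Ctrl IP and 0.106 ± 0.150 CPM in the Ctrl Input. There 1 of the 2 libraries had 0 reads, so that the size of the ratio depends on few reads. The Ctrl Input of Rpp25 was too low to pass the filter on low counts. Its call, counted above, is therefore a description, without a p-value. The log2 ratio stood at 10.1 without Ctrl Input replicate 1, which left the Ctrl Input at 0 reads and gives no bound. The call was lost without Ctrl Input replicate 2, without Ctrl IP replicate 1 or with library totals. The 4 called lower in the FLAG arm were Hexim2 (log2 −1.30), Srp54a (−1.34), Pop1 (−1.16) and Pop4 (−1.16), with adjusted p = 0.022 to 0.044, and none of them was called when FLAG Input replicate 1 or FLAG Input replicate 2 was left out. Their ratios without FLAG IP replicate 1 are not given here, nor is the median of −0.60 without it.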

How the data were processed

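Estimated counts (NumReads) and TPM values per feature were deposited by the authors, who quantified trimmed paired reads of 150 nt with Salmon on mm10 RefSeq transcripts and repeat consensus sequences. Trimming is credited to Trimmomatic in the labels and to Cutadapt in the methods. These estimated counts are fractional where reads fit several features (55.5% of nonzero values, tolerance 1e-06). Over 37713 features they were summed by gene symbol and rounded. Tests were edgeR 4.0.16 (R 4.3.3) quasi-likelihood fits with TMM factors, filterByExpr and Benjamini-Hochberg adjustment over all features tested. They held the 8 RIP libraries, the 4 Inputs with the 4 RNA-seq libraries, or the 4 RNA-seq libraries. In simulated data, of 100 features changed 3-fold, the FLAG IP over Input test recovered 22. The Inputs over RNA-seq test recovered 86 and the Lsm1_KD test 63. Of 100 features changed 8-fold, these tests recovered 81, 99 and 93. A 3-fold change in the pull-downs could thus often go uncalled. The changed features were drawn without the least abundant ones, and all simulated libraries varied alike. These recoveries therefore need not hold for RNAs with few reads or with a library such as FLAG IP replicate 1. Alternatives were DESeq2 1.42.0, limma 3.58.1 on log2 (TPM + 1), other scalings, no abundance filter, single transcripts, a replicate block and leaving out each library; a lone library left in a group is assumed to vary like the other groups. IP and Input of 1 arm and number were taken as 1 lysate, because the methods take the Input from the lysate, and their deviations correlated at 0.115 (FLAG) and 0.058 (Ctrl). The study calls the 2 libraries of a group biologically independent and states that each sequencing experiment was done 2 times. It does not describe how zygotes were divided among collections, and p-values measure only the spread between these libraries. Members and lists were chosen with earlier results of these data known. Named were all members found, up to 2 genes a partner group by adjusted p among those that passed (in Lsm1_KD otherwise the most abundant), and the 2 features with the highest Pearson r of log2 CPM (prior count 2) to each member. Dkc1, Mascrna and, in the pull-downs, Pop1 were named after their values were seen. Some labels title the control pull-down IgG, and others give untagged Lsm1 mRNA and anti-FLAG gel, which was taken here, and 1 listed partner gene is not reported here.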

Additional observations from a re-analysis of the deposited data

How the results depend on the processing

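The count of RNAs called among the 5 depended on the model. In FLAG IP over Input, 2 were called, against 0 with limma on log2 (TPM + 1), 1 with limma and a mean-variance trend, 0 with single transcripts, and 1 to 3 when a library was left out. In Ctrl IP over Input, 1 was called, against 3 with DESeq2, 3 without the abundance filter, 3 with the replicate block (lysate), 3 with only the 4 libraries of the arm, 0 with limma, 0 with single transcripts, and 0 to 1 when a library was left out. The FLAG over Ctrl ratio had 0 (0 to 3 with a library left out) and Lsm1_KD over Ctrl siRNA 0 (0 to 1). Limma and single transcripts called few features at all: 0 and 4 were called higher in the FLAG arm (3972 in edgeR), 2 and 6 in the Ctrl arm (403) and 1 and 0 in Lsm1_KD (612), while limma with a trend called 488, 94 and 370. Called higher in the Ctrl arm were 1343 with DESeq2, 1597 without the filter, 2119 with the arm alone and 131 with library totals. Called lower in the FLAG arm (969) were 2000 with DESeq2, 1634 without the filter, 2021 with limma and a trend and 111 with the arm alone. Called lower in Lsm1_KD (312) were 509 without the filter and 613 with limma and a trend. Called higher in the Inputs over RNA-seq (3554) were 1886 with limma. The limma fit with a trend and the crossed pairing were chosen after seeing the data, the trend after the fit without it. The replicate numbers of Lsm1_KD and Ctrl siRNA deviated at r = −0.11, and with crossed numbers as a block 956 features were called higher and 489 lower, against 612 and 312, and 411 and 188 with the numbers as given. Beyond the Ctrl arm, the block changed no call of the 5 RNAs. Directions that turned did so for values that were not called. Malat1 in the Inputs over RNA-seq was −0.059 with limma, with and without the trend, and in Ctrl Input over Ctrl siRNA 0.038 with library totals. With single libraries left out, log2 ratios ranged as follows. FLAG IP over Input: Rmrp −0.78 to 1.16, Rpph1 −1.15 to 0.055, Terc −0.78 to 2.32. FLAG over Ctrl ratio: Malat1 −0.37 to 0.47, Rmrp −1.78 to 0.16, Neat1 −0.45 to 2.27. FLAG Input over Ctrl Input: Rmrp −1.0 to 0.35, Rpph1 −0.032 to 1.17. Malat1: Inputs over RNA-seq −0.14 to 0.73, Ctrl Input over Ctrl siRNA −0.70 to 0.21, Lsm1_KD −1.70 to 0.14. The cause was not tested. In all, 366 of 423 alternative values of the 5 RNAs kept direction and call, 25 lost the call, 13 gained it and 19 turned. Values that were not called and stayed so are counted as kept. The pull-down calls themselves were lost more often. In the FLAG arm Malat1 and Neat1 each lost theirs in 3 of 13 alternatives, and in the Ctrl arm Malat1 in 5 of 13. Without the filter, Rpph1 (−1.61, adjusted p = 0.82) and Neat1 (−0.53, adjusted p = 0.93) could be tested in Lsm1_KD. Of the partner genes, checked after their values were seen, Hexim2, Srp54a, Pop1 and Pop4 lost their calls in the FLAG arm with library totals. Low reads of Terc, Rmrp and Neat1 limit precision.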
